A study of Mus musculus with 577 samples.

Results

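The heat shock chaperones described here are 10 of the 22060 protein-coding genes in the deposited count tables: Hspa1a, Hspa1b, Hspa8, Hspa5, Hsp90aa1, Hsp90ab1, Hsph1, Hspb1, Dnajb1 and Hspd1. They were chosen by symbol, as the rows of every gene count table that carried one of these names, and all 10 were present in each of the 8 tables. The study amplified cDNA from single mouse cells, and asked how well cells cut out of histological sections by laser capture microdissection (LCM) report their RNA. Of its 577 libraries, 562 were 3′-end libraries with gene counts and 15 were sequenced along the transcript. DRaqL is the lysis chemistry of the study, in which a detergent lysate of the captured cell is quenched before amplification by SC3-seq, Smart-seq2 or SMART-Seq v4. The question put to the chaperones was how their RNA differed with the way a cell was isolated, with the fixation and with the cell type.

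Single mouse embryonic stem cells (mESCs) grown in 2iLIF medium, which holds 2 kinase inhibitors and the cytokine LIF, were collected fresh (n = 45) or by LCM from ethanol-fixed sections of frozen cell blocks (n = 36). Ovaries came from 8-week-old female mice. They were snap-frozen, cut at 15 µm and fixed and stained in isopropanol, and single oocytes and granulosa cells, the somatic cells that surround the oocyte in its follicle, were captured. Oocytes were labelled as primary or as secondary-antral by follicle stage, and granulosa cells as neighboring or non-neighboring to the oocyte. The DRaqL-SC3-seq table held 30 secondary-antral and 14 primary oocytes with 31 neighboring and 26 non-neighboring granulosa cells, and 3 further granulosa cells, deposited apart as mixed profiles, were left out. Further alcohol-fixed cells were amplified by LCM-seq (37 granulosa cells), DRaqL-Smart-seq2 (34), SMART-Seq v4 (34 granulosa cells and 18 oocytes) and DRaqL-SMART-Seq v4 (39 and 15). A formalin series was fixed for 24 h and amplified by DRaqL-Protease-Smart-seq2 (24 granulosa cells and 12 oocytes). From a single mouse, 70 granulosa cells and 8 secondary-antral oocytes were captured by LCM from a frozen ovary, and 35 granulosa cells and 14 grown oocytes were dissociated from cumulus-oocyte complexes of the other ovary, which had been collected in medium with dibutyryl-cAMP. Replicated samples were 7 neighboring pools and 7 non-neighboring pools of about 10 cells and 7 bulk granulosa samples, and 8 oocytes were each captured from a pair of serial sections. The labels name no animal for the single cells, so cells of a group were treated as parts of 1 sample: their means are given with the SD over cells and no test.

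Heat shock proteins are molecular chaperones that bind unfolded or partly folded proteins. The Hsp70 family holds substrates in a cycle of ATP binding and release that J-domain proteins start and nucleotide exchange factors end, and Hsp90 dimers take over client kinases and steroid receptors from it. Some members are made in all growing cells, such as Hspa8 (the constitutive cytosolic Hsp70) and Hsp90ab1, and others, above all Hspa1a and Hspa1b, are induced by heat shock factor 1 when proteins unfold. Because tissue handling can itself induce them, inducible Hsp70 genes are widely read as markers of dissociation stress. Hspa5 (BiP) serves the endoplasmic reticulum and is induced there by the unfolded protein response, and Hspd1 (Hsp60) folds proteins inside mitochondria with its partner Hspe1.

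The sequences below are shown because Hspa1a and Hspa1b, the heat-inducible pair, are almost copies of each other. Hspa1a lies on GRCm38 chr17:34969190-34972156 and Hspa1b on chr17:34956436-34959238, both on the minus strand. Their coding sequences were 99.43% identical, against 75.58% for Hsp90aa1 and Hsp90ab1 and 73.92% for Hspa1a and Hspa8. The 250 bases upstream of their starts were 98.8% identical. They are printed from RefSeq (GRCm38.p6), 5′ to 3′ on the gene's strand, with the head-to-head heat shock element GAANNTTC in capitals; this motif, which reads the same on both strands, occurred in 6.694% of 32851 windows of that length.
Hspa1a chr17:34972157-34972406 (minus strand): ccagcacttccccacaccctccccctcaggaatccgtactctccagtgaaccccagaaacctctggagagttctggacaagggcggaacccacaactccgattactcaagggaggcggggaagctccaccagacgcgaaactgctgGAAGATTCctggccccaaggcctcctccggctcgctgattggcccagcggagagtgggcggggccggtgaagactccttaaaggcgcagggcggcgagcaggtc
Hspa1b chr17:34959239-34959488 (minus strand): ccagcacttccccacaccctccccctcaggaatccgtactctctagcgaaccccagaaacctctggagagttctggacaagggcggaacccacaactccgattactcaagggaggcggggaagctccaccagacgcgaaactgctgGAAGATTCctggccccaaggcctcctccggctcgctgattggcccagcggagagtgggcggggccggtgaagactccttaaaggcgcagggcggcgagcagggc
The gap between the genes was 9951 bp, and the authors counted reads up to 10 kb downstream of a gene's 3′ end, so the counting window of Hspa1a reached 49 bp into Hspa1b. How reads were split between the copies is therefore uncertain, and their summed value is given beside them.

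Other members carried different regulatory letters, shown here as 30-base windows with the matches in capitals. Promoters of 7 of the 10 members were in the RefSeq table (not Hspa8, Hsp90aa1 or Hsp90ab1). Hspa5 held the endoplasmic reticulum stress element (ERSE), found on either strand in 0.113% of the 32851 windows. Hsph1 held the tail-to-tail form TTCNNGAA, found in 7.166%. Hspb1 held 2 head-to-head matches, and Hspd1 held an overlapping run of both forms, with the 3-unit motif that occurs in 0.466% of windows. Neither Dnajb1 window held any of these letters.
Hspa5 chr2:34772020-34772049 (plus strand): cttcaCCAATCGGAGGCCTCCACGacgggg
Hsph1 chr5:149636351-149636380 (minus strand): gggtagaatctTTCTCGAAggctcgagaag
Hspb1 chr5:135887801-135887830 (plus strand): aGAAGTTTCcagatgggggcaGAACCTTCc
Hspd1 chr1:55088053-55088082 (minus strand): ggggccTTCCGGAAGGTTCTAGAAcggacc
These matches describe the letters only.

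Levels are given as log2(RPM + 1), where RPM scales a library's reads on protein-coding genes to 1000000, and since reads were counted at 3′ ends the values are not scaled by transcript length. Depth ran from 12748 reads in a dissociated granulosa cell to 17506401 in an oocyte section, and every count interval below is an exact 95% Poisson interval that covers counting error only. The labelled cell types were set against their markers. All 5 pluripotency genes averaged above 4 in both mESC groups, 13 or 14 of 14 oocyte genes did so in every secondary-antral, grown and section group, and 6 to 8 of 10 granulosa genes did so in every granulosa group. Primary oocytes held fewer oocyte genes above that level, 11 of 14 with DRaqL-SC3-seq and 12 after formalin but 5 and 4 with SMART-Seq v4 and DRaqL-SMART-Seq v4. Granulosa genes were above it in oocyte groups as well: 7 of 10 in secondary-antral and 5 in primary oocytes after formalin, 5 in primary oocytes by SMART-Seq v4, 4 in secondary-antral oocytes by either v4 method and 1 to 3 in the other oocyte groups. Their part in the oocyte levels was not tested. Blood genes reached 49954 RPM in 1 dissociated granulosa cell. Of 6 theca and interstitial genes, 3 averaged above 4 in the non-neighboring pools, where their sum had a median of 228 RPM against 0.189 in the neighboring pools. In non-neighboring cells by DRaqL-SMART-Seq v4, 2 of the 6 did so. The sum reached 14130 RPM in 1 non-neighboring LCM cell of the same mouse. Their part in the comparisons by position was not tested. Oocyte RNA was also present in granulosa cells: 16 of the 57 cells of the DRaqL-SC3-seq table, 13 of them neighboring, reached 10% of the median oocyte over 14 oocyte genes. In the same mouse, 4 of 70 LCM and 3 of 35 dissociated granulosa cells reached that share of its own median oocyte. No granulosa cell of that mouse was left out as a mixed profile.

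The 3 most abundant members, Hspa8, Hsp90aa1 and Hsp90ab1, made up 92.8% of the members' reads in fresh mESCs, 92.4% in LCM mESCs and 53.6 to 86.2% in the ovarian groups. Together the 10 genes took 1.73 ± 0.32% of protein-coding reads in fresh mESCs (SD, n = 45) and 1.40 ± 0.24% in LCM mESCs (n = 36). They took 1.03 ± 0.27% in secondary-antral and 0.638 ± 0.108% in primary oocytes by DRaqL-SC3-seq. Granulosa groups lay between 0.324% and 0.890%. The lowest mean, 0.281 ± 0.038%, was that of the dissociated grown oocytes (n = 14). Over the groups the members sorted into genes with their highest mean in mESCs (Hspa8, Hsp90ab1, Hspd1, Hspb1), a gene with its highest mean in dissociated granulosa cells (Hspa5) and genes with their highest mean in secondary-antral oocytes (Hspa1a, Hspa1b, Hsph1, Dnajb1, Hsp90aa1), as the heat map of group means shows.

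**Figure D1:**
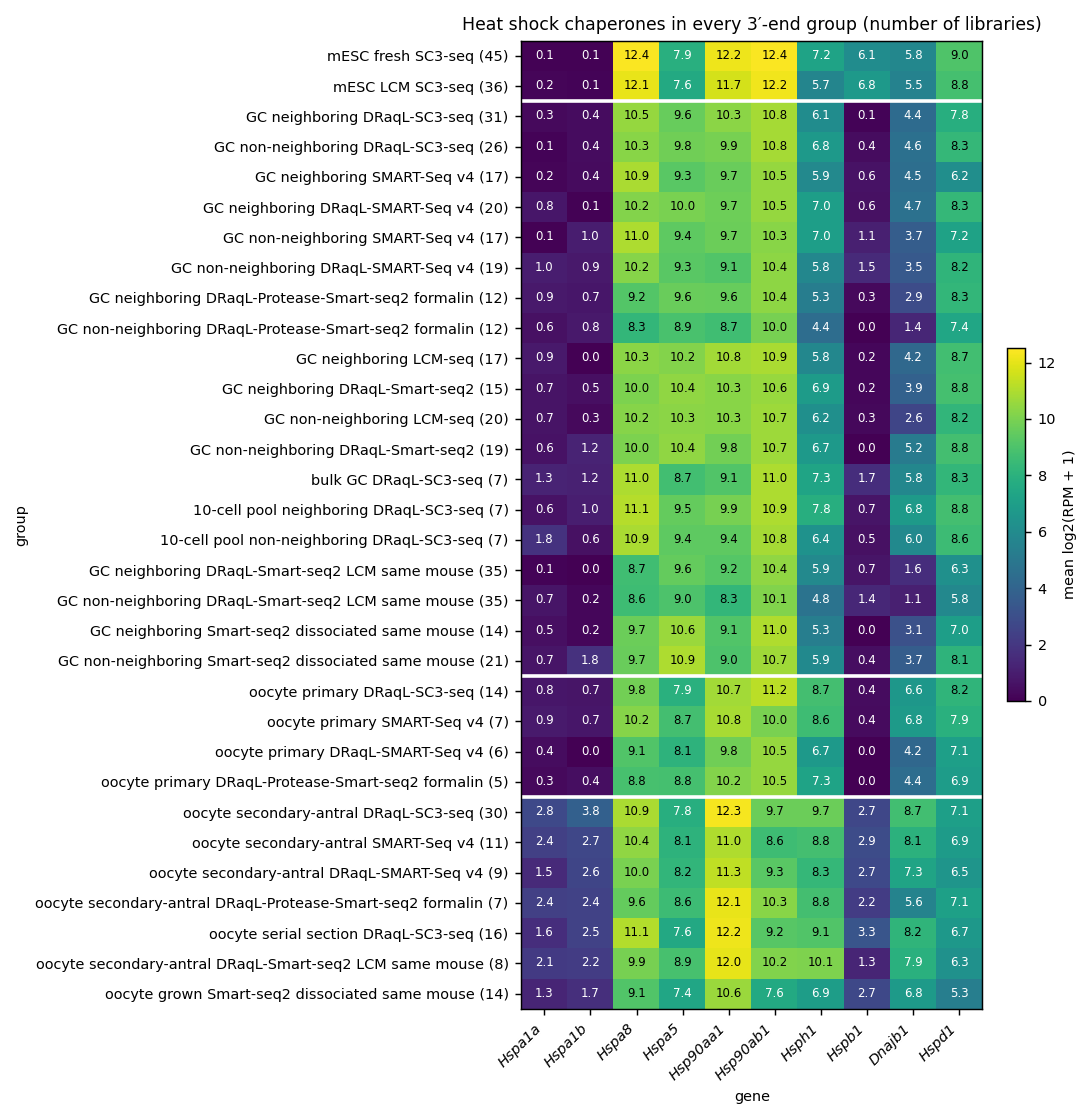
Mean log2(RPM + 1) of each chaperone (columns) in each of the 32 3′-end groups (rows, with the number of libraries); colour and printed number give the mean. White lines separate mESCs, granulosa cells, primary oocytes and larger oocytes. Hspa1a and Hspa1b stay under 2 in every mESC, granulosa and primary oocyte group, and Hspb1 is above 6 in mESCs alone.

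The inducible pair was almost absent from mESCs, however they were isolated. Hspa1a had reads in 2 of 45 fresh and 3 of 36 LCM mESCs, and Hspa1b in 5 of 45 and 4 of 36. Over summed counts the pair reached 0.191 RPM (0.111 to 0.306) in fresh and 0.653 RPM (0.478 to 0.871) in LCM cells, and 64% of the Hspa1a reads of the LCM group came from 1 cell. A share of 7 of 36 LCM cells had a read of either copy (Clopper-Pearson 95% interval 8.19 to 36%), against 6 of 45 fresh cells (5.05 to 26.8%), intervals that cover counting error over the cells of 1 sample and make no test between isolations. Hspb1, a small heat shock protein that holds unfolded proteins without ATP, was by contrast present in every mESC, at 6.09 ± 1.24 fresh and 6.77 ± 1.32 after LCM.

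Of the 8 members with a mean of at least 4 in either mESC group, 1 differed by 1 log2 unit or more, beside 9.15% of the 5366 genes compared. That gene was Hsph1, the Hsp110 exchange factor of Hsp70, at 7.24 ± 1.27 (SD, n = 45) in fresh and 5.69 ± 1.74 (SD, n = 36) in LCM cells. Its lowest, median and highest cells were 2.96, 7.58 and 8.99 fresh and 0.58, 5.90 and 8.70 after LCM, so the groups overlapped. The ratio of summed counts gave -1.17. The others lay within -0.47 (Hsp90aa1) and 0.69 (Hspb1), with Hspa8 at -0.36, Hspa5 at -0.32, Hsp90ab1 at -0.21, Dnajb1 at -0.25 and Hspd1 at -0.22, and the median of all genes compared was -0.17. These differences rest on the isolation labels of the 3′-end mESC libraries, which went against those of the mESC libraries sequenced along the transcript, described with the exon counts. Among partner genes, 1 of 16 cytosolic partners passed 1 unit (Bag1, an exchange factor of Hsp70, 1.07), as did 0 of 9 endoplasmic reticulum and 0 of 7 mitochondrial partners and 0 of 7 subunits of the chaperonin TRiC.

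Granulosa cells of the same mouse gave lower values after LCM than after dissociation for 9 of the 10 members. The neighboring and non-neighboring cells are pooled in these means (70 LCM, 35 dissociated). Of 6 members at or above a mean of 4, 3 passed 1 unit and all 3 were lower after LCM, in a comparison where 72.5% of 4227 genes did so and the median gene was at -0.41. They were Hspa8 (8.65 ± 1.06 against 9.67 ± 1.18), Hspa5 (9.28 ± 1.52 against 10.80 ± 1.87) and Hspd1 (6.06 ± 2.44 against 7.68 ± 2.33). Dnajb1, the J-domain protein that starts the Hsp70 cycle, was under the mean of 4 in both groups and differed by -2.12: it had reads in 13 of 35 neighboring and 12 of 35 non-neighboring LCM cells, and in 7 of 14 and 14 of 21 dissociated ones. The Hsp90 pair differed by -0.33 (Hsp90aa1) and -0.55 (Hsp90ab1), and both were above 0 with TMM scaling, which removed 2 of the 3 calls and moved the median gene to 0.40.

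Hspa1a and Hspa1b were detected in a minority of the granulosa cells of either isolation. Either copy had reads in 2 of 14 neighboring and 8 of 21 non-neighboring dissociated cells, and in 2 of 35 and 7 of 35 LCM cells. The highest dissociated cell was at 7.39 and the highest LCM cell at 6.76. Summed counts gave 22.3 RPM (17.2 to 28.4) in the dissociated and 7.52 RPM (6.40 to 8.77) in the LCM non-neighboring cells. The Hspa1b difference of -1.07 rested on few cells. At the median depth of 111681 reads in the dissociated cells, 1 read is already several RPM, so a low level in the cells without reads was not detectable. Hsph1 showed the same dependence on single cells: 94.1% of its reads in the neighboring dissociated cells came from 1 library at 14.08, and the difference of means was -0.37 where summed counts gave -2.08 and TMM scaling 0.17.

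Immediate early genes, which respond within minutes to handling and signalling, were lower after LCM in the same cells. All 5 at or above a mean of 4 were so, with a median of -3.93, and Fos (-6.49), Jun (-5.83) and Ier2 (-3.93) led them. Counts of partner chaperones past 1 unit are to be read beside the 72.5% of all genes compared that passed it. In the endoplasmic reticulum list, 10 of 13 did, all lower (Sdf2l1 -4.44, Creld2 -3.31, Pdia4 -2.74, each a folding factor of that compartment). Of the mitochondrial partners 5 of 7 were lower (Grpel1, the exchange factor of the mitochondrial Hsp70, -3.09), as were 5 of 7 TRiC subunits and 7 of 16 cytosolic partners, while 2 cytosolic partners were higher (Dnajc7, a cochaperone with a J domain, 2.52). Median depth was 262594 reads in LCM and 111681 in dissociated cells, and lysis chemistry differed as well (DRaqL-Smart-seq2 against Smart-seq2). With every library thinned to one depth, the median over all 10 members was -0.991, against -0.79 as reported. That of the genes at or above a mean of 4 was -0.997, against -0.41 as reported. The first median includes members under a mean of 4, so the 2 are over unlike sets and do not rank the members against the median gene. The dissociated cells came from cumulus-oocyte complexes of fully grown follicles, and the LCM cells from sectioned follicles. Granulosa marker sums had medians of 31621 RPM in dissociated and 4695 RPM in LCM non-neighboring cells. In neighboring cells they were 11088 and 5452 RPM. Lysis chemistry, collection medium, isolation and the source of the cells cannot be told apart.

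Oocytes of the same mouse went the other way. Of 7 members at or above a mean of 4, 5 passed 1 unit and all were higher after LCM, beside 40.3% of 7723 genes and a median gene at -0.05. Hsph1 was at 8.75, 10.26 and 10.78 in its lowest, median and highest LCM oocyte and at 6.35, 6.99 and 7.40 in the dissociated ones, without overlap. Hsp90ab1 was at 9.22, 10.26 and 10.66 against 6.70, 7.67 and 8.46, again without overlap, and Hspa5 and Hsp90aa1 did not overlap either. The differences were 3.13 for Hsph1, 2.54 for Hsp90ab1, 1.48 for Hspa5, 1.42 for Hsp90aa1 and 1.10 for Dnajb1, followed just under the limit by Hspd1 (0.99) and Hspa8 (0.85). Hspb1 alone was lower after LCM (1.27 ± 1.58 against 2.73 ± 1.71), at levels near single reads. Hspa1a and Hspa1b had reads in 7 of 8 and 5 of 8 LCM oocytes and in 7 of 14 and 8 of 14 dissociated ones.

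The stage labels differ between these 2 oocyte groups, secondary-antral for the LCM cells and grown for the dissociated cells. Lysis chemistry differed too (DRaqL-Smart-seq2 against Smart-seq2), and only the dissociated oocytes came from medium with dibutyryl-cAMP. Isolation, stage, lysis chemistry and medium therefore cannot be told apart. Median depth was 729296 reads in LCM and 252996 in dissociated oocytes. Beside 40.3% of all genes compared, 4 of 14 endoplasmic reticulum partners passed 1 unit as higher in LCM oocytes (Calr 2.37, Hsp90b1 1.95, Pdia3 1.76), as did 6 of 17 cytosolic partners (Fkbp4, an Hsp90 cochaperone, 2.74; Hspa4, an Hsp110 relative, 1.87), while Dnajb4 (-2.45) was 1 of 2 lower. The 7 of 13 oocyte markers past 1 unit were all lower in the LCM oocytes.

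Between lysis methods, within laser-captured cells, few members differed by 1 unit. In granulosa cells, DRaqL-Smart-seq2 against LCM-seq left 6 of 7 members within 1 unit and Dnajb1 at 1.27 (4.62 ± 2.08 against 3.34 ± 2.97), beside 21.6% of 5278 genes, and its summed counts gave 0.04. DRaqL-SMART-Seq v4 against SMART-Seq v4 left 6 of 7 within 1 unit and Hspd1 at 1.56 (8.25 ± 1.05 against 6.69 ± 3.18), beside 63% of 3871 genes, and its summed counts gave 0.11. Hspa8 was at -0.74 there, while the median gene was at 1.31. By summed counts Hspa8 was at -0.78 and the median gene at -0.14. Of the non-neighboring cells without DRaqL, 1 held 6749468 reads against a group median of 440186, so it weighed heavily in summed counts of SMART-Seq v4 granulosa cells. In oocytes, the same comparison put Dnajb1 at -1.53 and Hsph1 at -1.05 among 7 members, beside 19% of 7580 genes. Summed counts gave -1.15 for Dnajb1 and -0.45 for Hsph1, which then fell short of 1 unit, and 1 primary oocyte at 1.65, from 1 read, entered the Hsph1 mean. Dnajb1 was lower with DRaqL within both stages, 7.28 ± 0.37 against 8.06 ± 0.57 in secondary-antral and 4.18 ± 1.67 against 6.80 ± 0.49 in primary oocytes.

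**Figure D2:**
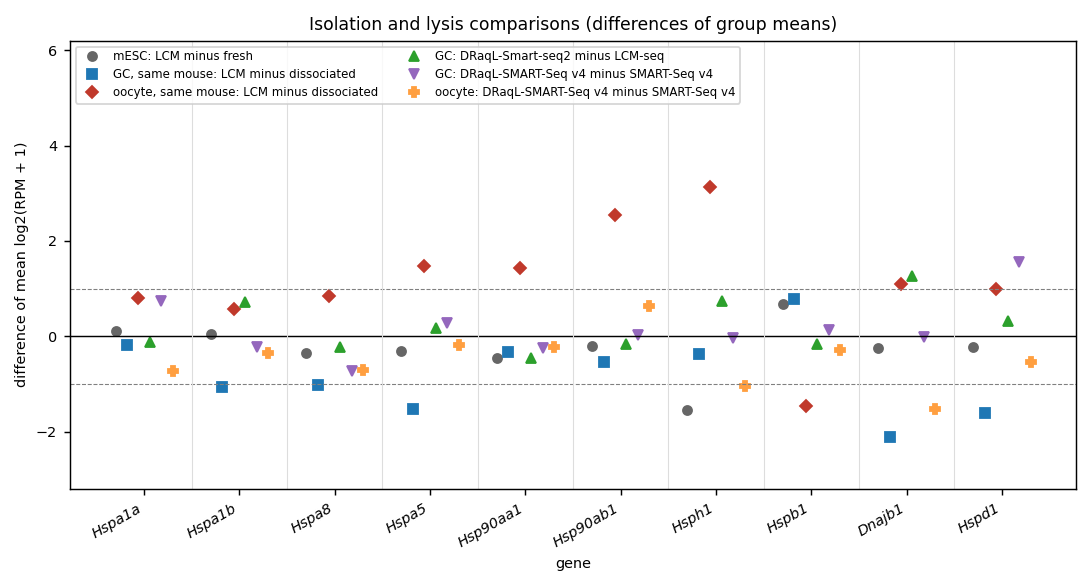
Difference of group means of log2(RPM + 1) for each chaperone under 6 comparisons of isolation or lysis, with dashed lines at -1 and 1; each point is a pair of groups without replicates. The same-mouse oocytes (red diamonds) lie above 0 for 9 genes, up to 3.13 for Hsph1, and the same-mouse granulosa cells (blue squares) below 0 for 9 genes, down to -2.12 for Dnajb1.

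Between the cell types of the ovary, the Hsp90 pair divided. Hsp90aa1, the inducible cytosolic Hsp90, was higher in oocytes than in granulosa cells in all 6 comparisons, by 1.70 with DRaqL-SC3-seq, 1.26 with SMART-Seq v4, 1.28 with DRaqL-SMART-Seq v4, 2.15 after formalin, 3.29 in LCM and 1.54 in dissociated cells of the same mouse. Its summed counts gave 0.89 to 3.12. Hsp90ab1, the constitutive form, was lower in oocytes in 5 of the 6, from -3.21 to -0.12, and at 0.21 after formalin. The comparisons with DRaqL-SC3-seq, SMART-Seq v4 and DRaqL-SMART-Seq v4 mixed primary and secondary-antral oocytes, as did the formalin comparison.

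Within each library, log2(RPM + 1) of Hsp90aa1 minus that of Hsp90ab1 gave a measure in which both genes share the library's total. It was above 0 in all 30 secondary-antral oocytes by DRaqL-SC3-seq, with a mean of 2.64 ± 0.97 and the lowest at 0.96. It was above 0 in every other secondary-antral, grown or section library as well, with group means from 1.81 (formalin) to 2.99 (dissociated grown). In the 14 primary oocytes of the same method it averaged -0.45 ± 0.53 and reached at most 0.63, so the stages did not overlap. The stages did not overlap in the other series either: the SMART-Seq v4 series ran up to 1.20 in primary and from 1.43 in secondary-antral oocytes, the DRaqL-SMART-Seq v4 series up to -0.10 and from 1.46, and the formalin series up to 0.04 and from 1.44. The primary oocytes by SMART-Seq v4 without DRaqL held the highest of the 4 primary group means, with oocytes at 0.53 to 1.20. Every granulosa and mESC group averaged below 0, and single granulosa cells spread widely, from -7.55 to 3.08.

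**Figure D3:**
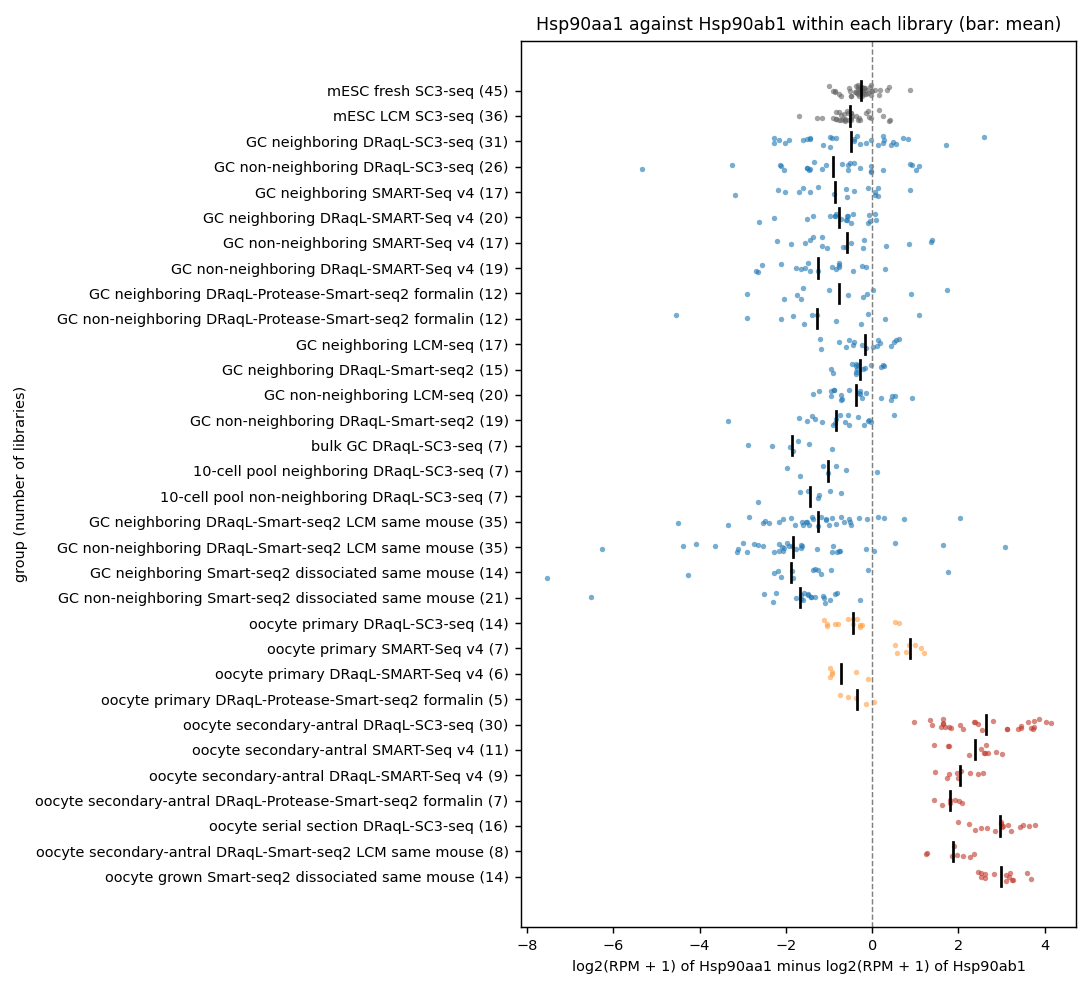
Each point is 1 library: log2(RPM + 1) of Hsp90aa1 minus that of Hsp90ab1 on the horizontal axis, by group (rows, with the number of libraries); the bar marks the mean. Grey points are mESCs, blue granulosa cells, orange primary oocytes and red larger oocytes, all of which lie right of 0.

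Hspa5 showed the opposite order to Hsp90aa1. It was lower in oocytes than in granulosa cells in all 6 comparisons, with -1.83 by DRaqL-SC3-seq (7.82 ± 0.60 in secondary-antral oocytes, 7.94 ± 0.80 in primary oocytes, 9.62 ± 1.48 and 9.77 ± 1.12 in neighboring and non-neighboring granulosa cells) and -3.43 in dissociated cells of the same mouse. It was among the members past 1 unit in 4 of the 6, and at -0.61 after formalin and -0.43 in the LCM cells of the same mouse. Hspd1 had no single direction. It was lower in oocytes in 4 of the 6, at -0.64 with DRaqL-SC3-seq, -1.52 with DRaqL-SMART-Seq v4, -0.81 after formalin and -2.35 in the dissociated cells, and higher by 0.59 with SMART-Seq v4 and 0.25 in the LCM cells of the same mouse. Summed counts put it lower in all 6 (-3.24 to -0.49). Hspa8 stayed within 1 unit in 5 of the 6 and reached 1.29 in the LCM cells of the same mouse.

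Hsph1 and Dnajb1, both partners of Hsp70, were higher in oocytes by difference of means in all 6 comparisons, and their size depended on how granulosa cells without reads entered the mean. With DRaqL-SC3-seq, Dnajb1 was at 8.74 ± 0.46 (SD, n = 30) in secondary-antral oocytes and at 4.35 ± 3.49 (SD, n = 31) and 4.61 ± 3.16 (SD, n = 26) in granulosa cells, with reads in 23 of 31 and 22 of 26 of them. The difference of means over both oocyte stages was 3.59 and the ratio of summed counts 1.37. Hsph1 gave 3.01 and 1.46. In the LCM cells of the same mouse the values were 6.56 and 5.19 for Dnajb1 and 4.76 and 3.26 for Hsph1. In the dissociated cells Hsph1 went from 1.26 to -2.19, where 1 neighboring cell held most of the granulosa reads, as given above. Granulosa cells were shallower (median 573406 reads against 1528484 with DRaqL-SC3-seq). By difference of means, the median of all genes compared was higher in oocytes in every one of the 6, at 2.73, 2.78, 1.49, 1.37, 2.52 and 2.43. By summed counts that median was -0.02, -0.18, -0.03, 0.16, -0.25 and -0.27 in the same order.

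Of 7 members compared each time, 3 were higher and 1 lower by 1 unit with DRaqL-SC3-seq (86.8% of 7474 genes called), 3 and 2 with SMART-Seq v4 (86.9% of 7215), 3 and 2 with DRaqL-SMART-Seq v4 (71.4% of 7220), 3 and 0 after formalin (68.4% of 7628), 4 and 0 in LCM cells (84% of 7405) and 3 and 3 in dissociated cells of the same mouse (83.5% of 7426). The higher members were Hsp90aa1, Hsph1 and Dnajb1 each time, with Hspa8 added in the LCM cells. In that order the median over the 7 compared was 0.17, 0.59, -0.56, 0.53, 1.29 and -0.58, so it had no single direction. The median over all 10, which adds members under a mean of 4 in both groups, was 1.69, 1.14, 0.42, 0.81, 1.48 and 0.59. Leaving out granulosa cells rich in oocyte RNA moved the medians over all 10 by less than 0.2, to 1.84, 1.09, 0.44, 0.70, 1.43 and 0.51.

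The inducible pair was low in most granulosa cells and detected mainly in larger oocytes. Hspb1 had no single direction over summed counts. It was at 7.62 RPM in oocytes and 2.47 in granulosa cells by DRaqL-SC3-seq, 10.7 and 0.188 after formalin and 11.4 and 1.15 in dissociated cells of the same mouse. By SMART-Seq v4 it was at 9.43 and 18.6, by DRaqL-SMART-Seq v4 at 11.8 and 10.9, and in LCM cells of the same mouse at 2.94 and 3.69. The SMART-Seq v4 granulosa sum gave most weight to 1 library of 6749468 reads. With DRaqL-SC3-seq, Hspa1b was at 0.00, 4.19 and 5.49 in the lowest, median and highest secondary-antral oocyte, and had reads in 29 of 30 of them, 6 of 14 primary oocytes, 5 of 31 neighboring and 3 of 26 non-neighboring granulosa cells. Summed over both copies, the level was 25.2 RPM (23.8 to 26.6) in secondary-antral oocytes, 3.18 RPM (2.47 to 4.04) in primary oocytes, and 2.24 RPM (1.62 to 3.02) and 2.35 RPM (1.62 to 3.31) in granulosa cells. The same secondary-antral oocytes held Hspa8 at 2075 RPM. Single granulosa cells could be as high as the oocytes, with 1 neighboring cell at 5.92 and 1 non-neighboring cell at 5.82 for Hspa1b.

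All secondary-antral, grown and section groups lay above every mESC, granulosa and primary oocyte group in the mean of Hspa1a plus Hspa1b, at 2.46 and above against at most 2.16 (the non-neighboring 10-cell pools). The order within the larger oocytes was dissociated grown 2.46, serial sections 3.01, DRaqL-SMART-Seq v4 3.10, LCM of the same mouse 3.23, formalin 3.48, SMART-Seq v4 3.60 and, highest, DRaqL-SC3-seq (4.40), and neighbours in it differed by less than their SD over cells (0.99 to 1.78). Summed counts narrowed or reversed this gap in some tables. Non-neighboring granulosa cells by SMART-Seq v4 reached 16.8 RPM, from 4 of 17 cells, against 17 RPM in secondary-antral oocytes. Of these 17 cells, 1 held 6749468 reads against a group median of 440186, so it weighed heavily in that sum. In the dissociated cells of the same mouse, grown oocytes were at 7.70 RPM, neighboring granulosa cells at 7.65 and non-neighboring cells at 22.3. Over the 29 groups of single cells and sections, the group means most like those of the pair belonged to E2f2 (Pearson r = 0.91), Nat14 (0.91), Tusc1 (0.90), Snph (0.90) and Otx1 (0.90) among 11303 genes. The groups share cell types, so these values are a description over 29 points and carry no test. Hsph1 (0.70) and Dnajb1 (0.68) were the members most like the pair, and Hsp90ab1 (-0.64) the least.

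**Figure D4:**
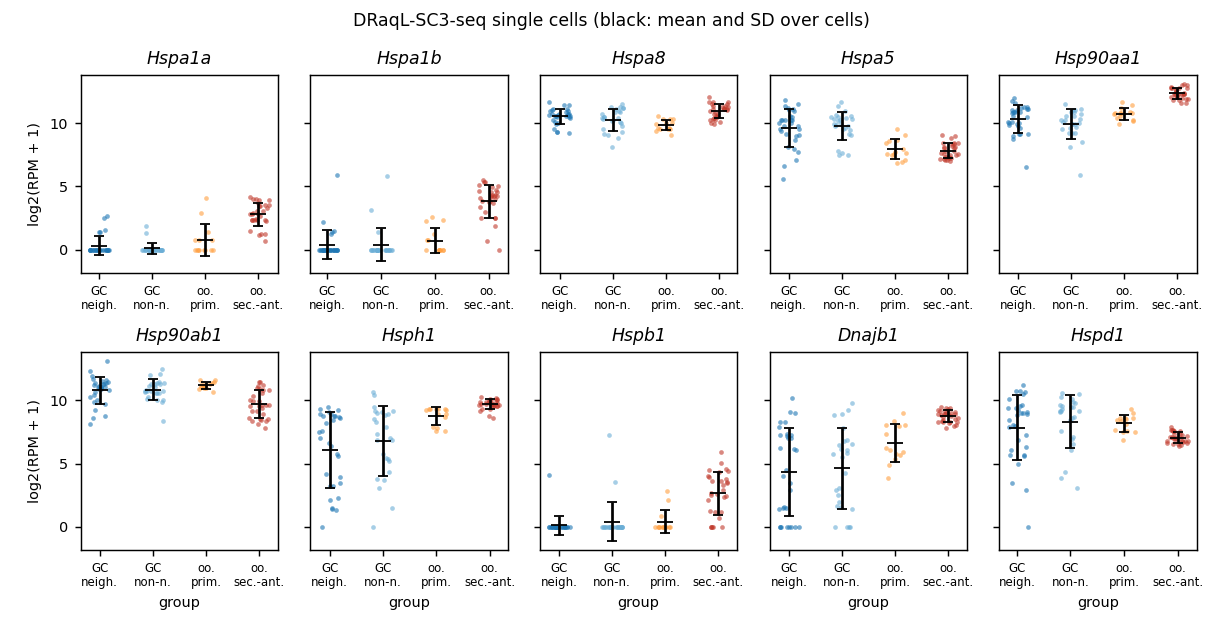
Log2(RPM + 1) of the 10 chaperones in single cells by DRaqL-SC3-seq: 31 neighboring (neigh.) and 26 non-neighboring (non-n.) granulosa cells and 14 primary (prim.) and 30 secondary-antral (sec.-ant.) oocytes (oo.). Points are cells and black bars the mean and SD; Hsph1 spans 7.59 to 10.29 over the oocytes and 0 to 10.68 over the granulosa cells.

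From primary to secondary-antral follicles, 3 members were higher by 1 unit or more with DRaqL-SC3-seq and 2 were lower, of 7 compared, beside 51% of 8350 genes. The higher ones were Dnajb1 (3.89, 6.16 and 8.98 in the lowest, median and highest primary oocyte, 7.81, 8.85 and 9.49 in the secondary-antral ones), Hsp90aa1 (9.94, 10.77 and 11.70 and 11.61, 12.31 and 13.13) and Hspa8 (9.08, 9.78 and 10.54 and 9.93, 11.06 and 12.04). All 3 overlapped between the stages, Hsp90aa1 by the narrow span from 11.61 to 11.70. Of the lower ones, Hsp90ab1 differed by -1.48 and Hspd1 by -1.14. Under a mean of 4, Hspa1a (2.02), Hspa1b (3.12) and Hspb1 (2.25) also differed, with Hspb1 detected in 3 of 14 primary and 25 of 30 secondary-antral oocytes. Hspa5 (-0.12) and Hsph1 (0.95, just inside the limit) did not pass it.

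Other amplifications gave part of this stage pattern. With SMART-Seq v4, both lysis methods together, Dnajb1 (2.12) was higher and Hsp90ab1 (-1.31) lower, the 2 of 7 members past 1 unit beside 52.9% of 8215 genes. Hsp90aa1 differed there by 0.78, with 10.99 ± 0.34 against 10.85 ± 0.23 without DRaqL, and 11.33 ± 0.21 against 9.80 ± 0.24 with it. After formalin, Hsp90aa1 (1.90), Hsph1 (1.53) and Dnajb1 (4.44 ± 1.72 in primary oocytes and a median of 6.38 in secondary-antral ones) were higher of 7 members, beside 55% of 8565 genes, while Hsp90ab1 was at -0.27 and Hspd1 at 0.22. Partners moved in both directions with DRaqL-SC3-seq: Dnaja1, a J-domain protein (2.24), and Dnajb4 (2.46) were among 3 of 19 cytosolic partners higher and Hspa2 (-1.89) among 2 lower, and 4 of 14 endoplasmic reticulum partners were higher (Atf4 2.36, Dnajc3 2.13) and 3 lower (Xbp1 -2.73). The heat shock factor gene Hsf1 was at 0.03.

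Formalin-fixed cells stood in a table of their own and are set beside alcohol-fixed ones without a comparison. In secondary-antral oocytes the formalin series gave 12.08 ± 0.44 for Hsp90aa1, 9.56 ± 0.72 for Hspa8, 8.79 ± 0.71 for Hsph1, a median of 6.38 for Dnajb1 and 3.48 ± 1.78 for the inducible pair (SD, n = 7). The DRaqL-SMART-Seq v4 oocytes from alcohol-fixed sections gave 11.33 ± 0.21, 9.99 ± 0.36, 8.31 ± 0.73, a median of 7.22 and 3.10 ± 1.22 in that order (n = 9). In granulosa cells the formalin series had Dnajb1 reads in 8 of 12 neighboring and 4 of 12 non-neighboring cells. Depth differs, with a median of 164188 reads in the formalin granulosa cells.

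Position in the follicle was tested in the replicated pools. None of the 7 members that passed the count filter was called between neighboring and non-neighboring pools by edgeR's quasi-likelihood test (adjusted p under 0.05), beside 0.453% of 9704 genes, and 0 of the 7 had an unadjusted p under 0.05. The members kept out by the filter were Hspa1a, Hspa1b and Hspb1. The largest log2 fold change was that of Hsph1, 0.79 ± 0.65 (SE), whose lowest, median and highest pools were 6.56, 7.98 and 8.81 neighboring and 1.86, 6.71 and 8.49 non-neighboring. Hsp90aa1 gave 0.41 ± 0.30, Dnajb1 0.41 ± 0.64, Hspd1 0.23 ± 0.37, Hspa5 0.11 ± 0.30, Hspa8 0.10 ± 0.21 and Hsp90ab1 0.02 ± 0.20, each with an adjusted p of 0.998. In the same pools 9 of 14 oocyte markers were called higher in the neighboring group, with Gdf9 at 6.28 (adjusted p = 0.0197, edgeR). DESeq2 called 1.20% of the genes and 0 members.

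Single granulosa cells by DRaqL-SC3-seq gave 0 of 7 members past 1 unit by position, beside 28.1% of 2878 genes, with Hsph1 (-0.69) and Hspd1 (-0.49) the farthest of those compared. Over the 8 pairs of granulosa groups in which a single method gave both positions, Hsp90aa1 was higher in the neighboring cells in 7 (median 0.46, range -0.05 to 0.94). Hsp90aa1 was also higher in oocytes than in granulosa cells, and 13 of the 16 DRaqL-SC3-seq granulosa cells rich in oocyte RNA were neighboring. The part of oocyte RNA in the Hsp90aa1 differences over the 8 pairs was not tested. Hspa1b was at -1.58 to -0.0021 in the 8 (median -0.49), at levels set by a few cells. Its value nearest 0 was that of DRaqL-SC3-seq, which ran from -0.37 to 0.89 over 8 other settings. No other member was on the same side in more than 6 of the 8.

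Bulk granulosa samples against the pools gave 0 of 8 members called, beside 0.101% of 11917 genes, with 0 members at an unadjusted p under 0.05 (edgeR) and 0 called by DESeq2, which called 90 genes. Hspa5 was at 6.56, 9.15 and 9.88 in the lowest, median and highest bulk sample and gave -0.53 ± 0.31 (SE, adjusted p = 0.907 by edgeR). Dnajb1 gave -0.61 ± 0.55, Hspd1 -0.46 ± 0.30, Hsp90aa1 -0.45 ± 0.29, Hspa1a -0.19 ± 1.21, Hsph1 -0.07 ± 0.52, Hsp90ab1 0.09 ± 0.15 and Hspa8 0.01 ± 0.19. Fewer cells of a type and less RNA per cell cannot be told apart in bulk samples and pools. Of the partner lists 0 of 17 endoplasmic reticulum, 0 of 20 cytosolic and 0 of 7 mitochondrial genes and 0 of 7 TRiC subunits were called, with Cct8 the nearest (-1.12, adjusted p = 0.104 by edgeR).

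Serial sections of the same oocyte, 16 libraries from 8 oocytes, gave the repeat error of each member. Abundant members agreed closely within an oocyte. Hsp90aa1 had an SD of 0.115 between the sections of an oocyte and 0.371 between oocytes, Hspa8 0.121 and 0.450, Hsph1 0.132 and 0.721, Dnajb1 0.170 and 0.381, Hspa5 0.258 and 0.334 and Hsp90ab1 0.301 and 0.425. Rare members varied more between sections: Hspa1b had an SD of 1.29 within and 0.700 between oocytes. Hspa1a had 0.644 and 0.710, Hspb1 0.835 and 1.05 and Hspd1, at a mean of 6.68, 0.489 and 0.407. Hspa1a had reads in both sections of all 8 oocytes and Hspb1 likewise, and Hspa1b in both sections of 7.

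**Figure D5:**
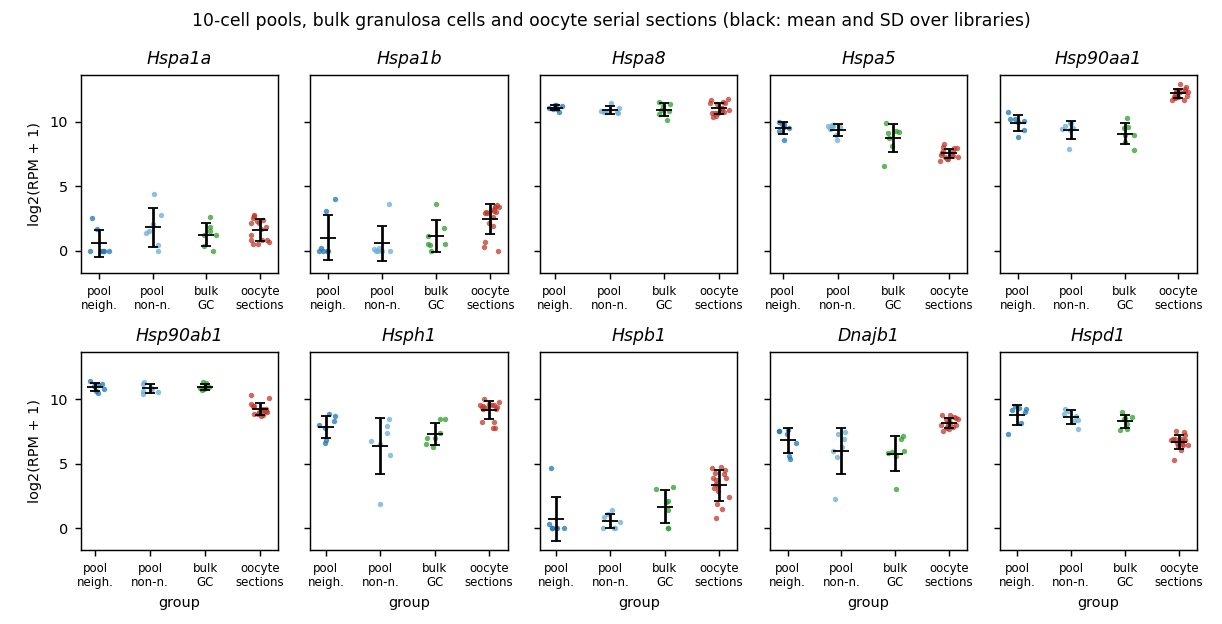
Log2(RPM + 1) of the 10 chaperones in 7 neighboring (neigh.) and 7 non-neighboring (non-n.) pools of about 10 granulosa cells, 7 bulk granulosa samples and 16 oocyte sections; black bars are the mean and SD. The 3 granulosa groups overlap for every gene, and the sections of Hsp90aa1 lie above all granulosa points.

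In 15 libraries sequenced along the transcript, reads were counted per exon, and exon entries of a gene overlap, so a read may be counted more than once and totals are not divided by length. Hspb1 had reads on 5 of 5 exon entries in all 10 mESC libraries and on 0 to 3 in the 5 oocytes. Hsph1 had reads on 21 to 25 of 52 entries in oocytes and on 3 to 13 in mESCs, at 588 to 1126 RPM over exon reads against 1.74 to 242. Dnajb1 was at 155 to 269 in oocytes and 4.88 to 41.5 in mESCs. The Hsp90aa1 to Hsp90ab1 log2 ratio was 2.19 to 5.08 in the oocytes and -0.30 to 1.04 in the mESCs, without overlap. Each of the 10 mESC libraries was closest in gene profile to a 3′-end library of the other isolation label (Spearman 0.855 to 0.882), and so fresh and LCM mESCs are not compared here. Which of the tables carries exchanged isolation labels was not settled. The 5 oocyte libraries were closest to the 3′-end library of their own number (0.887 to 0.916).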

How the data were processed

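Libraries were 3′-end counts from single mESCs, oocytes and granulosa cells, pools, bulk samples and serial sections, and exon counts from 15 transcript-wide libraries. The values are counts of reads per gene as deposited by the authors, who per the methods and the submitters' processing notes trimmed with fastp 0.20.0 and cutadapt 1.16, mapped to GRCm38 with HISAT2 2.1.0, and counted with HTSeq 0.10.0 within 10 kb of 3′ ends, or with featureCounts 2.0.1 for exons; multiply mapped reads of near-identical genes may be split or lost. Counts were scaled here to RPM over 22060 protein-coding genes and read as log2(RPM + 1). Single cells of a group formed 1 sample, so differences of group means carry no test: a difference of at least 1 was called among genes with a mean of at least 4 in a group. Pools and bulk samples were tested with edgeR 4.0.16 (quasi-likelihood, TMM, Benjamini-Hochberg 0.05), with DESeq2 1.42.0 as an alternative, on R 4.3.3. Where nothing says that pools came from separate animals, p-values measure the spread between these samples, which may be technical. Named genes were the 10 members and the largest differences of each partner or marker list. Members and lists were chosen with earlier results of these data known. The fits were tested on simulated data. Alternatives were the pseudocount, scaling, depth, summed counts, filters, leaving out oocyte-RNA-rich granulosa cells, replicates in turn and the replicate block. Spike-in and junction tables were not used.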

Additional observations from a re-analysis of the deposited data

Results flagged for a closer look

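Each member was searched for a library far from the others in the groups of 4 to 10 libraries (Dixon's test at 95%). Of 87 sets, 17 held such a library. For normally distributed values chance gives about 1 in 20, or 4.35. Values of rare members are not so distributed: where all other libraries hold no read, any library with reads is flagged. The chance count for these data is therefore not known, and the 17 are not read as an excess. Values are log2(RPM + 1).

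In primary oocytes by SMART-Seq v4, 1 of 7 was high for Hspb1 (2.53, all others at 0.0) and 1 for Hspd1 (8.29, next 7.97). With DRaqL-SMART-Seq v4, 1 secondary-antral oocyte was high for Hspa8 (10.84, next 10.13) and another low for Hspd1 (4.55, next 6.19). The same primary oocyte of that method was low for Hspa5 (4.85, next 8.15) and Hsph1 (1.65, next 7.19), the latter from 1 read.

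After formalin, 1 of 5 primary oocytes was high for Hspa1a (1.66, others at 0.0) and another low for Hsph1 (4.21, next 7.38). Among 7 secondary-antral oocytes, 1 was low for Hsph1 (7.36, next 8.71) and another held no Dnajb1 read (0.0, next 6.09). In the LCM oocytes of the same mouse, 1 of 8 held no Hspa1a read (0.0, next 1.86).

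In the bulk samples, replicate 2 was low for Dnajb1 (3.04, next 5.61). Among neighboring pools, replicate 5 was high for Hspb1 (4.62, next 0.29). Among non-neighboring pools, replicate 1 was high for Hspa1b (3.62, next 0.23) and low for Dnajb1 (2.27, next 5.54), replicate 3 low for Hsp90aa1 (7.92, next 9.38) and replicate 6 low for Hsph1 (1.86, next 5.66).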

How the results depend on the processing

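The median difference over the 10 members moved by less than 1 SD over cells under most alternatives, though medians near 0 changed sign: for example, that of the SMART-Seq v4 lysis comparison in granulosa cells went to -0.03 without cells rich in oocyte RNA, and that of follicle position to 0.02 with TMM scaling. With a pseudocount of 0.1 RPM it rose to 2.45 for oocytes minus granulosa cells by DRaqL-SC3-seq, 1.84 after formalin, 2.30 in LCM and 1.49 in dissociated cells of the same mouse. With 10 RPM it was 0.50 by DRaqL-SC3-seq, 0.26 by SMART-Seq v4 and 0.49 in LCM cells of the same mouse, and for secondary-antral minus primary oocytes 0.84 by DRaqL-SC3-seq and 0.69 after formalin. Thinned to equal depth, the same-mouse values were 0.38 (LCM) and -0.44 (dissociated). Summed counts gave 0.66 and -1.08 there, reversed the SMART-Seq v4 median to -0.63, and reversed Hsph1 in the dissociated cells to -2.18. The cause of the other shifts was not tested. In the SMART-Seq v4 sums, 1 granulosa library of 6749468 reads weighed heavily. In the pools, 0 members were called in every alternative, while the genes called ran from 3 to 56 when a replicate was left out (44 as reported; DESeq2 called 1.20% of genes), and for bulk against pools from 0 to 57 (12 as reported, 90 by DESeq2, 463 with every counted gene kept). With a replicate block for the pool number, 3 genes and 0 members were called. Same-numbered pools correlated at 0.0067 to 0.1886, all above 0, and 3 of 7 pools correlated best with their own number. These values do not settle whether same-numbered pools were pairs. The fit as reported used no block, and the count of genes called depended on that choice. Shallow granulosa libraries limit Hspa1a, Hspa1b and Hspb1 most, since a single read sets their value.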
